A study of Mus musculus with 11 samples.

Results

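The 10 genes described here encode enzymes and helpers that turn newly made procollagen into secreted, trimmed collagen: the prolyl 4-hydroxylase subunits P4ha1, P4ha2, P4ha3 and P4hb, the lysyl hydroxylases Plod1, Plod2 and Plod3, the collagen chaperone Serpinh1, the procollagen proteinase Bmp1 and its enhancer Pcolce. They were chosen by symbol for their place in the pathway, with earlier results of these data known. All 10 were found among the 47643 gene symbols of the table. Fibroblasts were obtained from the back skin of WT mice and of K14-Act (Act) mice, in which the keratin 14 promoter drives an activin transgene in keratinocytes, so that the sorted fibroblasts are exposed to activin from neighbouring cells. The mice were females of a mixed CD-1 and C57Bl/6 background aged 9 to 12 weeks, and the tissue was either normal back skin (NS) or excisional wounds at day 5 after injury (5dw). Live CD45-CD140a+ cells were sorted, with CD11b, F4/80 and, per the labels, CD3 as further negative markers (the antibodies listed in the study's methods do not include CD3), and the RNA of 3 mice was pooled for each library. NS gave 3 libraries for each genotype, whereas 5dw gave 3 for WT and 2 for Act. The Act 5dw libraries carry the numbers 1 and 3, since the authors removed number 2 at quality control.

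Procollagen chains are modified in the endoplasmic reticulum (ER) while they are being made. Hydroxylation of proline makes the triple helix stable at body temperature, and hydroxylation of lysine provides sites for sugars and for cross-links between molecules. The folded trimer is held by a dedicated chaperone, exported, and freed of its propeptides outside the cell, after which the molecules assemble into fibrils. In skin, fibroblasts are the main source of fibrillar collagen, and granulation tissue fibroblasts are known to deposit it in quantity.

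The promoters of the 3 catalytic prolyl 4-hydroxylase subunits are shown first, since these closely related genes moved by different amounts. Each sequence runs 5′ to 3′ from 250 bases before to 50 bases after the RefSeq start of the gene (GRCm38.p6). The P4ha1 sequence covers chr10:59323046-59323345, that of P4ha2 covers chr11:54100674-54100973 and that of P4ha3 covers chr7:100285270-100285569, all on the plus strand. Capitals mark ACGTG or GCGTG on either strand, the core bound by hypoxia-inducible factors. The P4ha1 window held 3 such matches, the P4ha2 window 4 and the P4ha3 window 0.
P4ha1: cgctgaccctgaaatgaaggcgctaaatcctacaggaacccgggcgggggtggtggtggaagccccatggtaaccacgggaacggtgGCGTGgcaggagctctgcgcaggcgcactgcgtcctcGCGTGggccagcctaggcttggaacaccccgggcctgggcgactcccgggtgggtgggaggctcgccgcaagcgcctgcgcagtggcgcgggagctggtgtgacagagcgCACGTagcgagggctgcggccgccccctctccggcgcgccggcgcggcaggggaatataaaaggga
P4ha2: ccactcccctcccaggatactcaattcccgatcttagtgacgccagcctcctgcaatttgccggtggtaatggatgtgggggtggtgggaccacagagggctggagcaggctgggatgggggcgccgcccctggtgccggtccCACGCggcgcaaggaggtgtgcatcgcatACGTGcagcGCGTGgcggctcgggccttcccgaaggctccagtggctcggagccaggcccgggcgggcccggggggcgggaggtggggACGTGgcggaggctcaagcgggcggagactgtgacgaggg
P4ha3: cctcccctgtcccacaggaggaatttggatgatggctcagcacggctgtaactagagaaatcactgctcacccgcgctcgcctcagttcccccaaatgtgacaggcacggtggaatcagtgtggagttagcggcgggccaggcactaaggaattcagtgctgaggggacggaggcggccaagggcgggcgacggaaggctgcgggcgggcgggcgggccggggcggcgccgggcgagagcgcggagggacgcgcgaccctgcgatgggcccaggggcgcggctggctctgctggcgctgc
The RefSeq table held promoters for 8 of the 10 genes, all but Plod2 and Bmp1. Of these 8, 7 held ACGTG or GCGTG, which was found in 43.8% of all 32851 promoters of this length and in 61.8% of the 11225 promoters of genes tested here. The letters GGGCGG, bound by Sp1-type factors, were also in 7 of the 8, against 35.7% of all promoters and 63.3% for tested genes. The P4ha3 window held 5 of them, the P4ha2 window 4 and the P4ha1 window 2. These are matches of letters, and no binding was measured.

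Levels are given in RPKM, read counts divided by exon length and by the mapped total of the library, which allows genes of different length to be set side by side. Between 18649310 and 39702148 mapped reads stood behind the libraries. Tests used log2(RPKM + 0.5) with limma over the 11979 genes that reached an RPKM of 1 in 2 or more libraries, as all 10 genes did, and a gene was called at an adjusted p under 0.05 (Benjamini-Hochberg). Since libraries are pools and groups hold 2 or 3 of them, p-values measure the spread between these pools. The first principal component (76.1% of the variance) separated NS from 5dw. On the second (7.06%), the NS libraries numbered 1 of both genotypes lay at 22.4 and 35.7. The other NS libraries lay between -18 and -7.42. Results without the 2 NS libraries numbered 1 are therefore also given where a call or a sign changed. Pdgfra, which encodes CD140a, was at 49.8 to 65.3 RPKM in NS and 29.6 to 37.3 RPKM in 5dw, and Ptprc, which encodes CD45, did not exceed 0.0498 RPKM in any library. Expression of the transgene was not analysed here as a check of the genotype labels.

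Markers of other cell types were read beside all tested genes, of which 48.8% were called lower in WT wounds and 36.5% in Act wounds, and fewer were called higher (9.45% and 9.04%). Median-ratio scaling rescales each library so that the median change over all genes is near 0. With it, the lower shares were 22.2% and 20.8% and the higher shares 22.4% and 19.9%. Of 10 fibroblast markers, 3 were higher in WT wounds and 4 lower (Pdgfra, Dcn, Lum and Thy1), and in Act wounds 3 and 3. With median-ratio scaling the counts were 4 and 1 in WT and 3 and 3 in Act. Of 14 keratinocyte markers, 13 were lower in 5dw in either genotype (12 with median-ratio scaling), and their summed RPKM was 1280 to 2340 in WT NS, 1290 to 4770 in Act NS, 126 to 1060 in WT 5dw and 268 to 308 in Act 5dw, with no marker at 0 throughout a group. Of 10 immune markers, 9 were used and 6 passed the filter on low values. In WT, Cd3e, a T cell gene, and Csf1r, a macrophage receptor gene, were higher in 5dw and 0 were lower, and in Act Cd3e was higher and Cd68 and Cd74 were lower (3 higher and 0 lower in WT, and 2 and 1 in Act, with median-ratio scaling). The immune sum was 17.1 to 51.8 in NS and 68.1 to 121 in 5dw, and in 5dw most of it was the single transcript Cd3e, at 2.94 to 33.9 RPKM in NS and 55.5 to 105 RPKM in 5dw. The other immune markers had medians on either side. Csf1r had a median of 1.87 RPKM in NS and 3.55 in 5dw, Lyz2 of 1.21 and 2.25, and S100a8 of 0.361 and 1.15, the last called in WT with median-ratio scaling only. Cd74 had medians of 3.21 and 1.74 RPKM, Cd68 of 8.08 and 5.85, and Cd52, which did not pass the filter, of 0.263 and 0.0435. Of the remaining lineages, mural cells had 6 markers that passed the filter, and the others had fewer. In WT wounds 1 endothelial marker was higher and 1 lower of 4 tested (2 and 1 with median-ratio scaling), and in Act wounds 2 were higher and 1 lower (2 and 0). Of 6 mural cell markers, 0 were higher and 3 lower in WT (1 and 1 with median-ratio scaling), and in Act 1 was higher (Rgs5) and 2 lower (1 and 1). All 3 Schwann cell markers tested were lower in either genotype (2 in WT and 3 in Act with median-ratio scaling). The 1 muscle marker tested was lower in either genotype, a call lost with median-ratio scaling, and 0 of 2 adipocyte markers were called (Adipoq and Fabp4, neither with an unadjusted p under 0.05). For mural cells, 3 of 6 is about the share of all genes called lower in WT. The part of these cells in the results was not tested. In bulk samples, fewer cells of a type and less RNA per cell cannot be told apart.

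The 10 genes spanned a wide range of levels. Serpinh1 was the highest, with a mean of 709 RPKM over the 6 NS libraries and 1270 RPKM over the 5 5dw libraries. It was followed in NS by P4hb (289), Pcolce (192) and Bmp1 (138), and then by P4ha1 (32.7), Plod3 (23.8), Plod1 (18.0), P4ha2 (14.9), Plod2 (14.5) and P4ha3 (5.61). In this order, the NS ranges of Pcolce (152 to 224) and Bmp1 (118 to 164) overlapped, as did those of P4ha2 (11.1 to 18.7), Plod2 (6.15 to 21.7) and Plod1 (15.7 to 19.7), and that of Plod2 also reached those of Plod3 and P4ha3 (2.69 to 8.15). Those of P4ha1 (27.6 to 35.8) and Plod3 (20.7 to 25.6) did not. In 5dw, Bmp1 (mean 323 RPKM) was above Pcolce (253) and Plod2 (86.6) was above P4ha1 (63.5), so both pairs changed places, in each case without overlap of the 5dw ranges. P4ha3 (mean 43.9 RPKM, 36.4 to 50.1) came above Plod1 (39.1, 30.5 to 46.3) and P4ha2 (39.7, 33.2 to 48.4) by its mean only, since these ranges overlapped and P4ha3 was still the lowest of the 10 genes in 2 of the 5 5dw libraries. Among all tested genes, P4ha3 moved from percentile 54.5 in NS to 93.7 in 5dw and Plod2 from 79.6 to 96.4, while Serpinh1 was at 99.6 and 99.9. The exon lengths behind the RPKM values were those of all annotated exons for 8 genes but shorter for Plod2 (4179 of 5392 bases) and Bmp1 (3757 of 8870 bases), which bears on the order of genes and not on a gene's comparison between groups. The same reads were also divided by the length of all annotated exons, a choice made after seeing the data. Bmp1 was then below Pcolce in every 5dw library (0.514 to 0.573 per Pcolce), and the 5dw ranges of Plod2 and P4ha1 overlapped. No reads from the added exons entered, so these values cannot settle the order of genes.

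**Figure D1:**
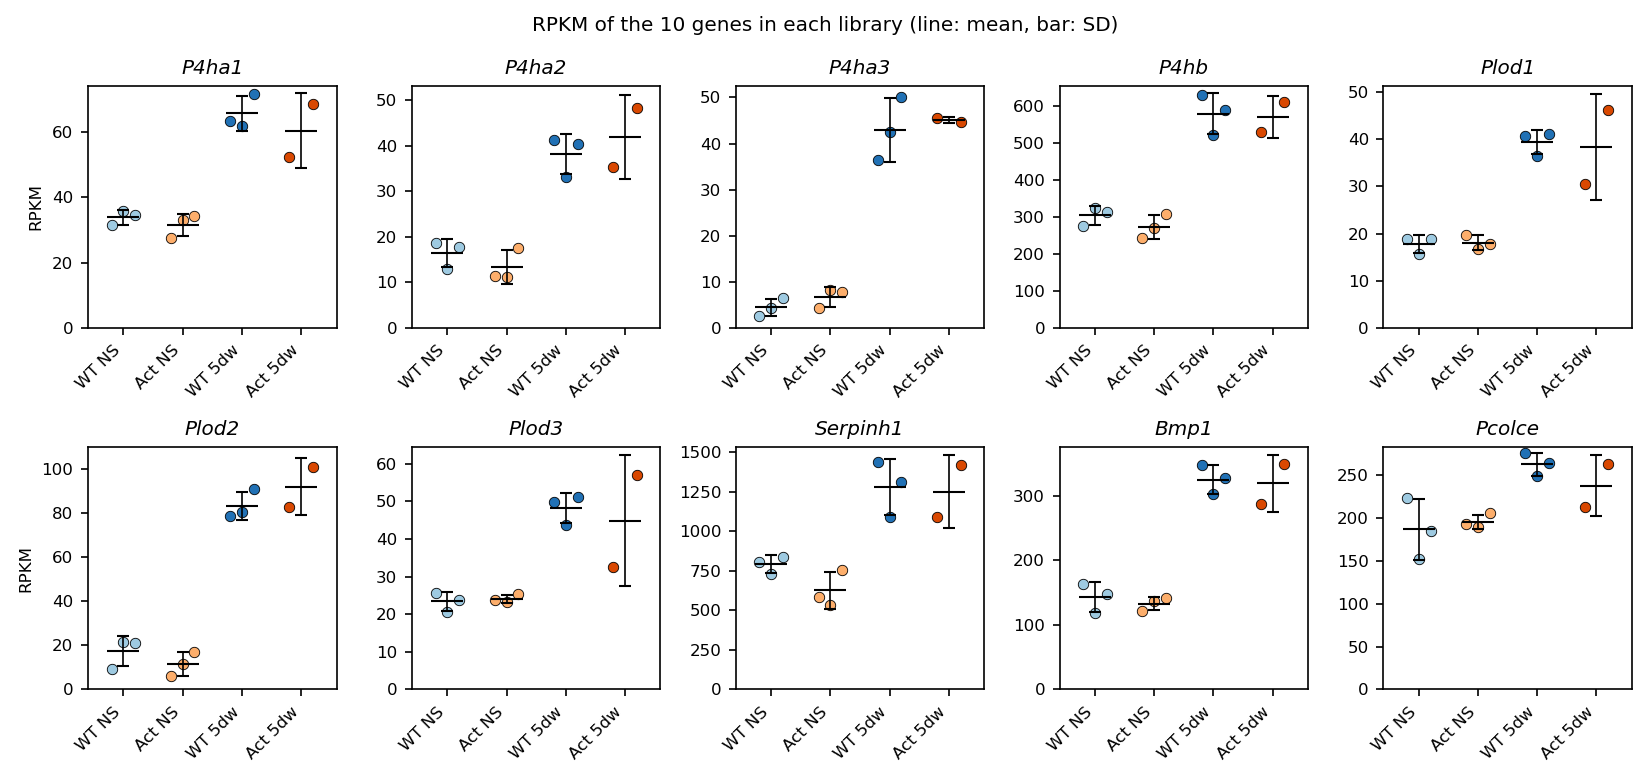
RPKM (vertical axes, from 0) of the 10 genes in each of the 11 libraries (points) by group (horizontal axes), with the group mean (line) and SD (bar). For 9 genes every 5dw library lies above every NS library, and for Pcolce one Act 5dw library at 213 RPKM lies below one WT NS library at 224 RPKM.

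To see how wounding changed these genes in fibroblasts, 5dw was compared with NS within each genotype. In WT wounds all 10 genes rose, by 0.51 to 3.18 on the log2 scale, and 9.45% of all tested genes were called higher. In Act wounds 9 of the 10 rose, against 9.04% of all tested genes, and Pcolce was the exception. P4ha3 and Plod2 rose most in both genotypes, P4ha3 9.08-fold in WT and 6.54-fold in Act and Plod2 4.98-fold and 8.17-fold, against 1.42-fold to 2.29-fold in WT and 1.21-fold to 3.09-fold in Act for the other 8. In either genotype the median change of the 10 genes (1.08 in WT and 1.05 in Act) lay above that of all tested genes (-0.40 and -0.31). For 9 of the 10 genes every 5dw library was above every NS library, which held for 8.45% of all tested genes. Since the 10 genes were chosen with earlier results of these data known, these counts are a description. P4ha2, P4ha3 and Plod2 had already been listed by the study among genes regulated by wounding in these libraries.

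The median of all genes was below 0, and lower calls outnumbered higher ones, with 1132 higher and 5846 lower in WT and 1083 higher and 4376 lower in Act. With median-ratio scaling, which sets that median to 0, 2684 of 5339 calls in WT and 2384 of 4876 calls in Act were higher. The log2FC of each of the 10 genes was then larger (0.96 to 3.61 in WT and 0.63 to 3.38 in Act). All 10 were called higher in both genotypes under this scaling, where the background was 22.4% of genes in WT and 19.9% in Act. The values below are without that scaling.

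**Figure D2:**
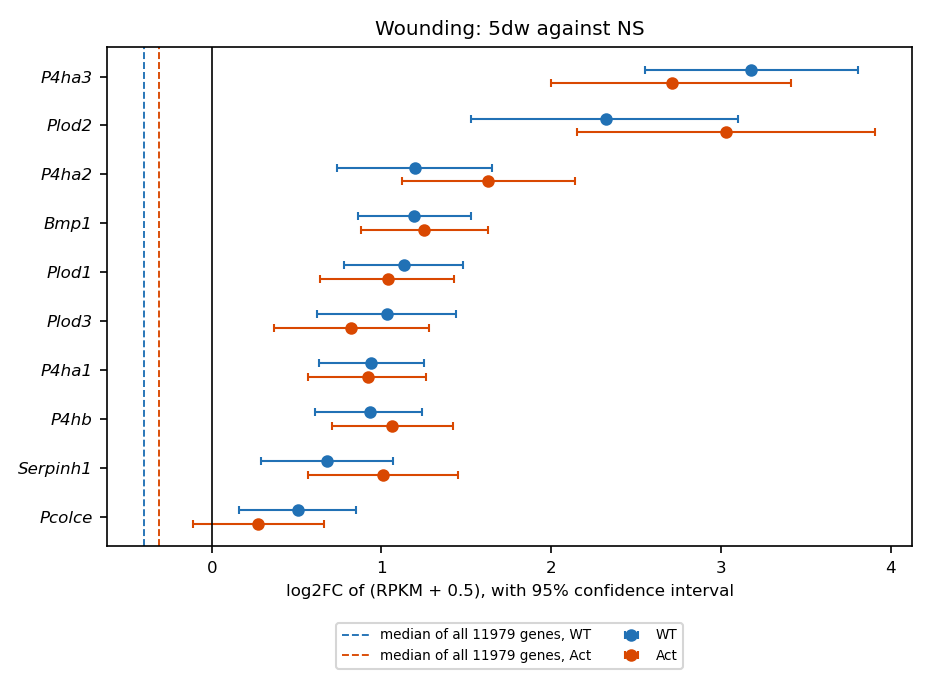
log2FC of 5dw against NS on the log2(RPKM + 0.5) scale (horizontal axis) for the 10 genes (vertical axis) in WT (blue) and Act (orange), with 95% confidence intervals as bars. Dashed lines mark the median of all 11979 tested genes (-0.40 in WT, -0.31 in Act), and all 20 points lie to the right of both.

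P4ha3, on chromosome 7 (100285520 to 100319699, plus strand, GRCm38 as for all positions here), encodes one of the catalytic alpha subunits that hydroxylate proline. Normal skin of WT mice gave 2.69, 4.36 and 6.40 RPKM, and normal skin of Act mice gave 4.24, 8.15 and 7.80. In 5dw the level was 36.4, 42.5 and 50.1 in WT, and 45.6 and 44.7 in Act wounds. Hence the lowest 5dw library was 28.2 RPKM above the highest NS library, and the 2 Act wound libraries lay within the WT range. The log2FC was 3.18 ± 0.29 (SE, adjusted p = 1.32e-05) in WT and 2.71 ± 0.32 (adjusted p = 0.000111) in Act, the 33rd and 49th highest of all 11979 genes. Leaving out 1 library gave 2.90 to 3.45 in WT, the lowest without WT NS library 1, and 2.43 to 2.86 in Act. Between 213 and 6097 reads per library stood behind these values. The genes whose log2 levels followed P4ha3 most closely over the 11 libraries were Ereg (Pearson r = 0.985), which encodes the growth factor epiregulin, Hist1h4i (0.983) and S1pr1 (0.983), a sphingosine-1-phosphate receptor. The points of these correlations share the libraries and fall into an NS and a 5dw cluster, so the r values largely describe that separation.

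P4ha1, on chromosome 10 (59323296 to 59373304, plus strand), encodes the alpha subunit with the highest level of the 3 in these cells. It was at 31.4, 35.8 and 34.6 RPKM in WT NS and at 27.6, 32.9 and 34.1 in Act NS. In 5dw it was at 63.3, 61.8 and 71.7 in WT and at 52.2 and 68.4 in Act. All 5 wound libraries were above all NS libraries, the nearest by 16.4 RPKM. The log2FC was 0.94 ± 0.14 (adjusted p = 0.000321) in WT and 0.92 ± 0.16 (adjusted p = 0.00108) in Act.

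P4ha2, on chromosome 11 (54100095 to 54131665, plus strand), encodes a further alpha subunit. Its RPKM was 18.7, 13.0 and 17.8 in WT NS and 11.4, 11.1 and 17.6 in Act NS. After wounding it was 41.2, 33.2 and 40.3 in WT and 35.4 and 48.4 in Act, again without overlap between the tissues. The Act wound libraries held the second lowest and the highest of the 5 wound values. The log2FC was 1.20 ± 0.21 (adjusted p = 0.000765) in WT and 1.63 ± 0.23 (adjusted p = 0.000367) in Act.

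P4hb, on the minus strand of chromosome 11 (120560298 to 120573253), encodes the shared beta subunit, protein disulfide isomerase, which also works outside this enzyme. Its levels were several times those of the alpha subunits, at 276, 324 and 315 RPKM in WT NS and 243, 270 and 307 in Act NS. In wounds they were 629, 521 and 590 in WT, and the Act libraries had 531 and 611. The lowest wound library exceeded the highest NS library by 197 RPKM. The log2FC was 0.93 ± 0.14 (adjusted p = 0.000384) in WT and 1.06 ± 0.16 (adjusted p = 0.000487) in Act.

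Each enzyme pairs alpha subunits with this beta subunit, and the make-up of the alpha subunits was compared within each library, where scaling between libraries plays no part. P4ha3 made up 5.10% to 15.6% of the summed P4ha1, P4ha2 and P4ha3 RPKM in NS and 25.8% to 34.3% in 5dw. The share of P4ha1 fell from 57.4% to 67.3% in NS to 39.2% to 44.9% in 5dw, and that of P4ha2 was 21.3% to 35.4% and 24.2% to 29.9%. The first 2 shares did not overlap between the tissues (adjusted p = 0.00813 each, two-sided exact permutation test over 200 arrangements, BH over 13 ratios), and the third did (adjusted p = 0.82, a difference of -0.72 percentage points). The smallest p that this test allows is 0.005. The sum of the 3 alpha subunits per P4hb rose as well, from 0.164 to 0.194 in NS to 0.224 to 0.275 in 5dw (adjusted p = 0.00813 in the same exact test).

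Plod2, on chromosome 9 (92542223 to 92608428, plus strand), encodes lysyl hydroxylase LH2, which acts on the telopeptides at the ends of the collagen molecule and so bears on the type of cross-link. Its RPKM was 9.36, 21.7 and 21.1 in WT NS and 6.15, 11.7 and 17.0 in Act NS. In 5dw it was 78.6, 80.3 and 90.6 in WT, and the Act libraries had 82.8 and 101. The lowest value of each NS group was in its library numbered 1, and all wound libraries were at least 56.9 RPKM above the NS libraries. The log2FC was 2.32 ± 0.36 (adjusted p = 0.000384) in WT and 3.03 ± 0.40 (adjusted p = 0.000222) in Act. Leaving out 1 library gave 1.93 to 2.52 in WT, the lowest without WT NS library 1, and 2.65 to 3.35 in Act. Of the 31-base sequences of Plod2, 5.87% also occur in other genes, and the annotated transcript Gm38391 lies opposite to it.

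Plod1, on the minus strand of chromosome 4 (147909753 to 147936767), encodes the lysyl hydroxylase of the helical part. It was at 18.9, 15.7 and 18.8 RPKM in WT NS and 19.7, 16.8 and 17.9 in Act NS. After injury the values were 40.7, 36.5 and 41.1 in WT, and the Act libraries had 30.5 and 46.3. The wound libraries were again all higher, although the 2 Act libraries lay on either side of the WT ones. The log2FC was 1.13 ± 0.16 (adjusted p = 0.000214) in WT and 1.04 ± 0.18 (adjusted p = 0.00106) in Act.

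Plod3, on chromosome 5 (136987019 to 136996648, plus strand), encodes an enzyme that also adds sugars to hydroxylysine. Its RPKM was 25.6, 20.7 and 23.9 in WT NS, 23.8, 23.3 and 25.4 in Act NS, 49.9, 43.7 and 51.1 for WT wounds, and 32.5 and 57.1 for Act wounds. The gap between the tissues was the narrowest of the 9 genes without overlap, 6.91 RPKM, and the 2 Act wound libraries stood far apart. The log2FC was 1.03 ± 0.18 (adjusted p = 0.000915) in WT and 0.82 ± 0.21 (adjusted p = 0.0079) in Act. Without Act 5dw library 3 the Act value was 0.42 with an adjusted p of 0.0981. Plod3 shares 12.0% of its 31-base sequences with other genes and overlaps Znhit1 on the other strand, and the sources used here do not say whether reads were counted by strand.

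Within the lysyl hydroxylases, Plod2 made up 17.4%, 37.3% and 33.0% of the summed Plod1, Plod2 and Plod3 RPKM in WT NS and 12.4%, 22.7% and 28.2% in Act NS. In 5dw its share was 46.4%, 50.0% and 49.6% in WT and 56.8% and 49.4% in Act. Plod2 was thus the largest contributor in 1 of the 6 NS libraries and in all 5 wound libraries. With the same reads divided by the length of all annotated exons, its share was 9.87% to 31.6% in NS and 40.2% to 50.5% in 5dw. It was then the largest in 0 of the 6 NS and in all 5 wound libraries. No reads from the added exons entered, so the NS count depends on the length used. The share of Plod3 was 35.7% to 47.9% in NS and 22.3% to 29.5% in 5dw, and that of Plod1 was 27.0% to 39.7% and 20.9% to 24.1%. None of the 3 shares overlapped between the tissues (adjusted p = 0.00813 each, the same exact permutation test), with either length.

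**Figure D3:**
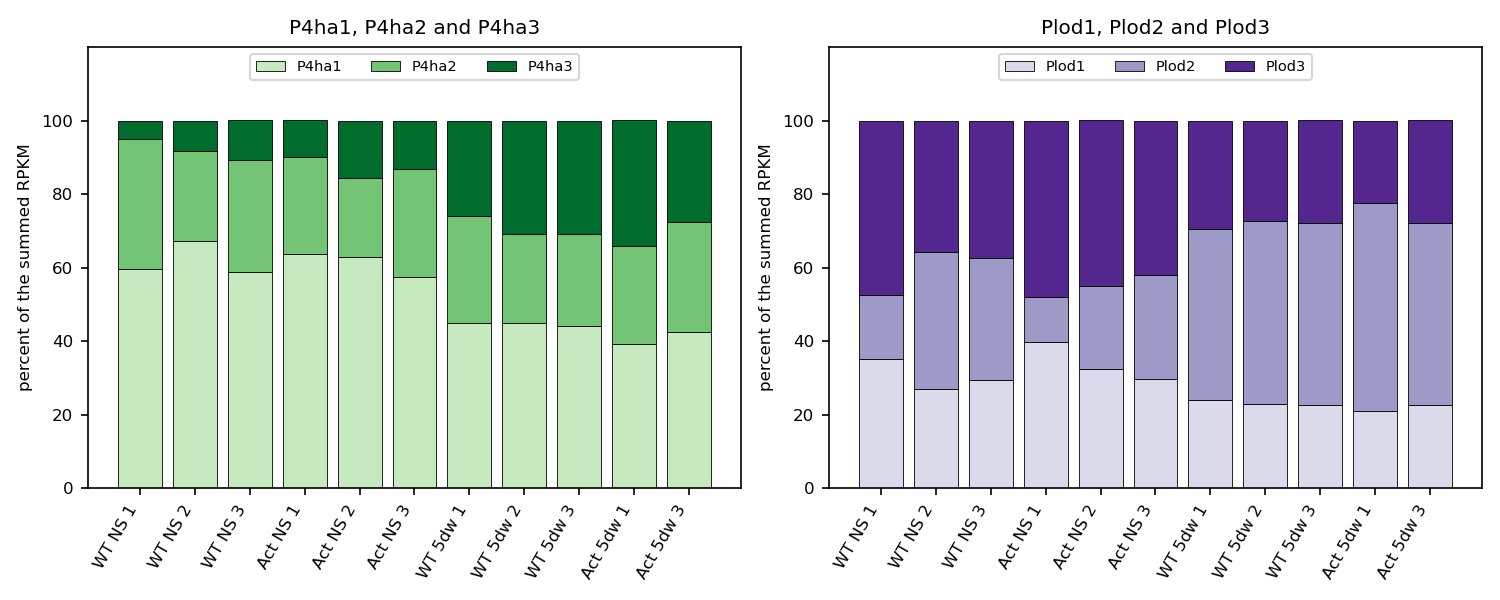
Share of each gene in the summed RPKM (vertical axes, percent) of P4ha1, P4ha2 and P4ha3 (left) and of Plod1, Plod2 and Plod3 (right) in each library (bars). The P4ha3 share is 5.10% to 15.6% in NS and 25.8% to 34.3% in 5dw, and the Plod2 share is 12.4% to 37.3% in NS and 46.4% to 56.8% in 5dw.

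Serpinh1, on the minus strand of chromosome 7 (99345376 to 99353239), encodes the chaperone HSP47, which binds the procollagen triple helix in the ER. It had 808, 731 and 838 RPKM in WT NS and 587, 533 and 757 in Act NS. In wounds it had 1440, 1090 and 1310 RPKM in WT, and the Act libraries had 1090 and 1420. The tissues did not overlap, and the smallest gap was 248 RPKM. With a log2FC of 0.68 ± 0.18 (adjusted p = 0.00754) in WT and 1.01 ± 0.20 (adjusted p = 0.00233) in Act, it had the second smallest rise of the 10 genes in WT, on the highest starting level.

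Bmp1, on the minus strand of chromosome 14 (70474558 to 70520234), encodes the proteinase that removes the carboxy-terminal propeptide. Its RPKM was 164, 118 and 148 in WT NS and 121, 137 and 141 in Act NS. The wound values were 347, 302 and 327 in WT and 288 and 349 in Act. Every wound library was above every NS library, by 124 RPKM or more, and the log2FC was 1.19 ± 0.15 (adjusted p = 0.000121) in WT and 1.25 ± 0.17 (adjusted p = 0.000275) in Act.

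Pcolce, on the minus strand of chromosome 5 (137605103 to 137613784), encodes a secreted glycoprotein that speeds up this cleavage. It was at 224, 152 and 185 RPKM in WT NS and 193, 190 and 206 in Act NS. In 5dw it was at 276, 249 and 264 in WT and 213 and 263 in Act. Here alone among the 10 genes the tissues overlapped, by 11.6 RPKM. The log2FC was 0.51 ± 0.16 (adjusted p = 0.0171) in WT. In Act it was 0.27 ± 0.17 (95% confidence interval -0.11 to 0.66, adjusted p = 0.225). The WT call was lost without WT NS library 2 (0.37, adjusted p = 0.0582) or WT 5dw library 1 (0.47, adjusted p = 0.058). With median-ratio scaling the Act value was 0.63 with an adjusted p of 0.016. Pcolce overlaps Fbxo24 on its own strand and the antisense gene Gm36266. Over the 11 libraries its log2 level was most like those of Serpinf1 (Pearson r = 0.961), Mis18a (0.954) and Lmf1 (0.954), given as a description.

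The proteinase and its enhancer therefore moved by unequal amounts. Bmp1 per Pcolce was 0.629 to 0.798 in NS and 1.21 to 1.35 in 5dw, without overlap (adjusted p = 0.00813, exact permutation test). With the same Bmp1 reads divided by the length of all its annotated exons, the ratio was 0.267 to 0.338 and 0.514 to 0.573. The p was the same. Pcolce2, which encodes a second enhancer and was looked at among other propeptide-processing genes, went the other way. It was at 74.6 to 101 RPKM in NS and 3.22 to 6.69 RPKM in 5dw, and its log2FC was -4.19 ± 0.22 (adjusted p = 5.2e-07) in WT and -4.28 ± 0.24 (adjusted p = 1.52e-06) in Act. In NS it was thus at a level nearer to that of Pcolce than in wounds.

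The substrate of these proteins rose too. The summed RPKM of Col1a1, Col1a2 and Col3a1, the chains of type I and type III collagen, served as a yardstick within each library. Pcolce per 1000 of this sum was 22.1 to 33.4 in NS and 10.4 to 13.1 in 5dw, and Serpinh1 was 68.4 to 141 and 53.6 to 64.9, in both cases lower in wounds and without overlap (adjusted p = 0.00813 and 0.013, exact permutation test). Plod2 per 1000 was 0.718 to 4.18 in NS and 3.54 to 4.45 in 5dw, a rise with overlap (adjusted p = 0.013). This call was lost without WT 5dw library 2 or 3 (adjusted p = 0.052 each) and without both NS libraries numbered 1 (adjusted p = 0.0903), which held the lowest values, 0.924 and 0.718. P4hb per 1000 was 27.2 to 62.4 and 26.1 to 29.0, lower in wounds with an adjusted p of 0.0473 that was 0.0722 to 0.118 when any library but WT NS 1 or WT NS 3 was left out, where fewer arrangements are possible. Bmp1 per 1000, at 14.1 to 24.0 and 14.1 to 16.0, did not pass (adjusted p = 0.0975), but it did without Act NS library 1 (adjusted p = 0.0217) and without both NS libraries numbered 1 (adjusted p = 0.0197), when it was lower in wounds.

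Other genes of collagen biosynthesis show how the 10 genes compare with their neighbours in the pathway. Of the 6 genes of the prolyl 3-hydroxylase complex, 5 rose in WT and 5 in Act wounds (medians 0.72 and 0.73). In WT these included the enzyme P3h1 (1.45 ± 0.14), P3h4, a relative (0.91 ± 0.21), and Crtap, the partner of P3h1 (0.83 ± 0.13). Of 5 other ER genes of collagen folding and glycosylation, 2 rose and 1 fell in WT (3 and 1 with median-ratio scaling), and 3 rose and 1 fell in Act. Fkbp10, a prolyl isomerase, rose by 1.64 ± 0.18 in WT and the galactosyltransferase Colgalt1 by 0.99 ± 0.15, whereas its relative Colgalt2, at 0.578 to 2.85 RPKM, fell by 1.47 ± 0.12. Of 6 further protein disulfide isomerases and ER thiol proteins, 4 rose in WT (6 with median-ratio scaling) and 6 in Act, led by Pdia5 (1.82 ± 0.12), Pdia4 (0.73 ± 0.13) and Txndc5 (0.70 ± 0.13) in WT.

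Fibrillar collagen chains rose in 8 of 10 tested cases in either genotype (medians 1.58 and 1.57), among them Col24a1 (2.97 ± 0.16 in WT, at 0.362 to 0.764 RPKM in NS), Col27a1 (1.93 ± 0.15) and Col5a1 (1.81 ± 0.20). Procollagen export genes showed smaller and mixed values. Of 5 tested, 1 rose and 1 fell in either genotype, with Sec23a of the COPII coat at 0.40 ± 0.14 and the ubiquitin ligase adaptor Klhl12 at -0.72 ± 0.15 in WT, while Creb3l1 (0.27 ± 0.20) did not pass. Median-ratio scaling changed these counts to 4 higher and 1 lower in WT and 4 higher and 0 lower in Act. Of 5 other propeptide-processing genes tested out of 8 listed, 2 rose and 2 fell in either genotype. Besides Pcolce2, the proteinase Tll1, a relative of Bmp1, fell by 1.80 ± 0.13 in WT (3.15 to 5.23 RPKM in NS and 0.847 to 1.27 in 5dw), and the amino-propeptide proteinase Adamts14 rose by 0.92 ± 0.16.

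Of 4 prolyl hydroxylases with other substrates, 0 were higher in either genotype and 2 were lower, P4htm, a transmembrane relative (-1.37 ± 0.15 in WT), and Egln2, one of the oxygen-sensing hydroxylases (-0.74 ± 0.17). With median-ratio scaling 1 of the 4 was lower. With so few genes, neither count stands apart from the shares of all tested genes. Egln3 was at -0.10 ± 0.39 and was not called. Counts for these groups are a description beside the background of 9.45% and 9.04% of genes called higher and 48.8% and 36.5% called lower in WT and Act, and the groups were listed with earlier results of these data known.

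**Figure D4:**
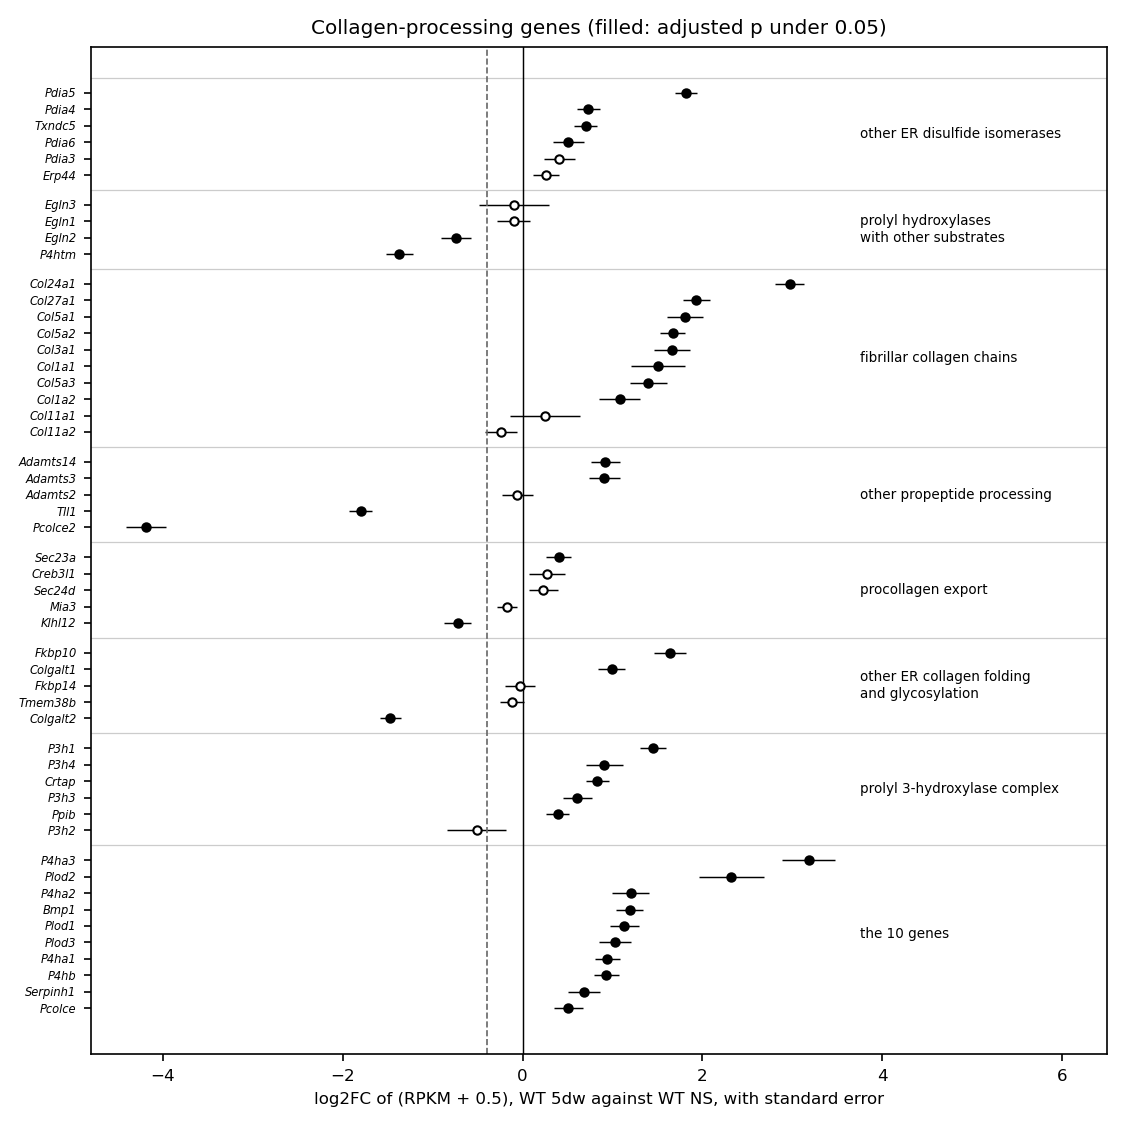
log2FC of WT 5dw against WT NS (horizontal axis, log2(RPKM + 0.5) scale, bars are SE) for the 10 genes and the tested genes of 7 related groups (rows), with the median of all tested genes as a dashed line at -0.40. All 10 genes are filled (adjusted p under 0.05) and to the right of 0, Col24a1 (2.97) is the highest of the other genes, and Pcolce2 (-4.19) is the lowest.

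Whether activin overexpression changed the 10 genes was asked by comparing Act with WT in each tissue. In NS, 0 of the 10 genes were called, at a background of 0.0167% (2 of 11979 genes), and 0 had an unadjusted p under 0.05, which 6.88% of all genes had, with 0 called by limma-voom as well. The smallest unadjusted p was 0.0726, for Serpinh1 (-0.35 ± 0.18). P4ha3 had the highest difference (0.56 ± 0.29, 95% confidence interval -0.07 to 1.19) and Plod2 the lowest (-0.58 ± 0.36, -1.37 to 0.21), and leaving out 1 library gave 0.27 to 0.84 and -0.96 to -0.20. In NS the levels of P4ha3 were 2.69 to 6.40 RPKM in WT and 4.24 to 8.15 in Act, and those of Plod2 were 9.36 to 21.7 and 6.15 to 17.0, so that the genotypes overlapped for both.

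In 5dw, again 0 of the 10 genes were called by limma-trend or limma-voom, at a background of 0.0334% (4 genes), and 0 had an unadjusted p under 0.05, which 3.22% of all genes had, the smallest of the 10 being 0.407. The differences between Act and WT wounds ran from -0.16 for Plod3 (95% confidence interval -0.61 to 0.30) to 0.14 for Plod2 (-0.74 to 1.02). For P4ha3 the difference was 0.08 (-0.62 to 0.79), for P4ha2 0.12 (-0.39 to 0.63) and for P4ha1 -0.13 (-0.48 to 0.22). Intervals this wide leave room for differences of either sign, and for each of the 10 genes the sign turned or the value reached 0 under at least 1 of 22 alternatives. With all libraries, 3 of the 10 differences were above 0. Without Act 5dw library 1, 10 of the 10 were (Pcolce at 0 when rounded), and without Act 5dw library 3, 1 of the 10 was. The sign across the 10 genes thus depended on which Act 5dw library was kept. Without Act 5dw library 1, for example, Plod3 was at 0.24 and Plod1 at 0.23, where all libraries gave -0.16 and -0.07. P4ha2, P4ha3 and Plod2 were among the genes that the study had selected as activin-regulated on these same libraries, so their direction here is not independent evidence.

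The interaction, which asks whether wounding changed a gene by a different amount in Act than in WT, was called for 0 of the 10 genes and for 0 of 11979 genes (background 0%), with limma-trend and with limma-voom. None of the 10 genes had an unadjusted p under 0.05, which 400 of all genes (3.34%) had. Plod2 had the highest value (0.72, 95% confidence interval -0.47 to 1.90) and P4ha3 the lowest (-0.47, -1.42 to 0.47). Leaving out 1 library gave 0.34 to 1.10 for Plod2 and -0.75 to -0.19 for P4ha3. These were the 2 genes with the widest spread in NS, with coefficients of variation of 44.2% and 38.9%. For P4ha2 the interaction was 0.43 (-0.26 to 1.12) and for Serpinh1 0.32 (-0.27 to 0.91).

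**Figure D5:**
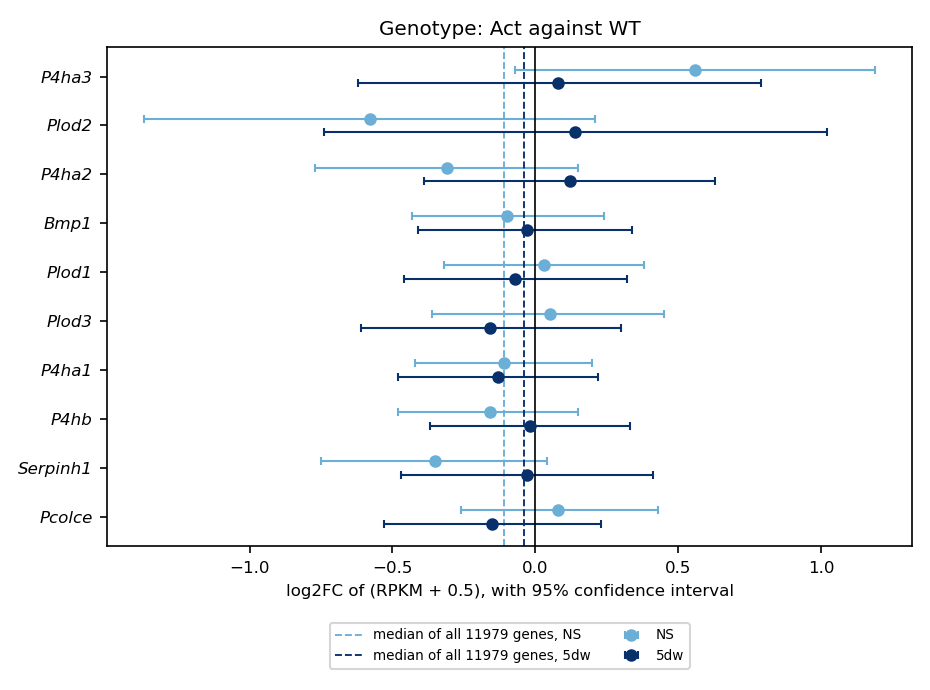
log2FC of Act against WT on the log2(RPKM + 0.5) scale (horizontal axis) for the 10 genes (vertical axis) in NS (light) and 5dw (dark), with 95% confidence intervals as bars and the medians of all tested genes as dashed lines (-0.11 and -0.04). All 20 intervals include 0.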

How the data were processed

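RNA of sorted fibroblasts was measured in 11 libraries of 4 groups. The authors aligned stranded poly-A reads to GRCm38 in CLC Genomics Workbench and deposited RPKM values per gene symbol. Whether counting used strand, and the annotation, are not given in the sources used here. The study's test, the edgeR exact test, takes counts and was not run.

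RPKM values were used as log2(RPKM + 0.5), with a minimum RPKM of 1 in at least 2 libraries (11979 genes), in limma-trend 3.58.1 (R 4.3.3) with 1 mean per group over all 11 libraries, 7 residual degrees of freedom and 3.89 prior ones (median). p-values were adjusted within each comparison by the Benjamini-Hochberg method. A fold change on this scale understates the change of low genes. Ratios within libraries were compared by a two-sided exact permutation test of the tissue labels within each genotype.

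Mapped reads were recovered as the totals that turn RPKM times exon length (GENCODE M21) into whole reads, to within 0.03, for 80.7% to 82.0% of low genes. Depth differed 2.13-fold, and in WT it ran with tissue, at 18649310 to 29718948 mapped reads in NS and 38740410 to 39702148 in 5dw. The part of depth in the results was not tested. The recovered reads served for limma-voom. The fit was tested on simulated data.

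The 10 genes, the related groups and the markers were chosen with earlier results of these data known. All 10 genes are named. Of each related group, the genes named have the largest change in WT wounds (up to 3), and the 3 genes most like the genes with the highest and lowest change are named. Alternatives were other pseudocounts, filters, scalings and fits, limma-voom, a replicate block, and leaving out libraries.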

Additional observations from a re-analysis of the deposited data

How the results depend on the processing

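Over the 22 alternatives (21 for the interaction), the number of the 10 genes called was 9 or 10 for WT wounds, 8 to 10 for Act wounds and 0 for both genotype comparisons and the interaction. With 2 libraries in Act 5dw, leaving out 1 leaves a single library that is assumed to vary like the others. With a replicate block (libraries with the same number treated as a block), 10 genes were called in WT wounds, 9 in Act wounds and 0 in the other comparisons. The numbers are not known to pair libraries: of 15 same-numbered pairs, 12 had a correlation of deviations over 0.1 (range -0.12 to 0.55), and 9 of 11 libraries matched their own number best, a hint from the data. Over all genes the block moved the calls from 6978 to 7317 in WT wounds and from 5459 to 5718 in Act wounds.

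Changes of sign were limited to differences that had not been called. For Act NS against WT NS, median-ratio scaling gave 0.03 for P4ha1 and 0.05 for Bmp1, and without both NS libraries numbered 1 Bmp1 was at 0.07. Leaving out 1 library gave -0.23 to 0.01 for Bmp1, -0.06 to 0.08 for Plod1, -0.04 to 0.11 for Plod3 and -0.06 to 0.22 for Pcolce. For Act 5dw against WT 5dw, median-ratio scaling gave 0.02 for P4hb, 0.01 for Serpinh1 and 0.01 for Bmp1, quantile normalization gave 0, 0.10 and 0.05, and the replicate block gave 0 for P4ha2. Leaving out 1 library gave -0.32 to 0.06 for P4ha1, -0.10 to 0.34 for P4ha2, -0.03 to 0.20 for P4ha3, -0.12 to 0.08 for P4hb, -0.36 to 0.23 for Plod1, 0 to 0.28 for Plod2, -0.56 to 0.24 for Plod3, -0.22 to 0.16 for Serpinh1, -0.17 to 0.10 for Bmp1 and -0.30 to 0 for Pcolce. For the interaction, Bmp1 was at -0.04 with median-ratio scaling and at -0.11 without both NS libraries numbered 1, and leaving out 1 library gave -0.22 to 0.17 for P4ha1, -0.39 to 0.20 for Plod1, -0.61 to 0.20 for Plod3 and -0.08 to 0.20 for Bmp1. The P4ha2 share differed by -2.11 to 0.622 percentage points when 1 library was left out and by 0.78 without both NS libraries numbered 1. The cause of these changes was not tested. The same reads of Plod2 and Bmp1 were also divided by the length of all annotated exons, an alternative added after seeing the data. Then 11 of the 13 ratios passed, as with the deposited values.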
